A study of Mus musculus with 36 samples.

Results

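Stable open loci are stretches of open chromatin compared between the infarct border zone and sham hearts on days 4, 7 and 14 after surgery. Their ratio of border zone to sham tags stayed near the median ratio of each day's loci. Of the 60847 loci formed from the region lists of all 3 days, 19733 were listed on every day and 2201 met the rule. These members are 3.62% of all loci and 11.2% of the loci listed on every day. The lists give, for each open region, the tags (sequenced fragments of open DNA) counted in a border zone library and in a sham library. Regions sharing 1 bp or more were merged to form a locus, and its tags were summed per library and day. The ratio of border zone to sham tags was divided by the median ratio of that day's loci, which gives the centred ratio. A member had a centred ratio between 0.83 and 1.2 on all 3 days. The members were thus selected on the contrast of border zone and sham itself. Their closeness to sham after this centring is what the rule asked for, not a result.

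Much of the open chromatin of any cell is constitutive. It lies largely at promoters of widely expressed genes, often in CpG islands, and at sites held open by the architectural protein CTCF, whereas distal enhancers change more with cell type and state. In ATAC-seq a transposase cuts open DNA and tags it for sequencing, so the tags over a region report how open it is in the nuclei sampled. The border zone is the surviving muscle next to the scar of a myocardial infarction, where cardiomyocytes return in part to a fetal gene programme.

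The 6 libraries came from left ventricles of FVB/N mice. On each day 1 library was from border zone nuclei after myocardial infarction and 1 from nuclei of sham-operated ventricle, so no condition had a replicate within a day. The ATAC-seq labels give the first time as day 4, used here, whereas the text on the series' design gives day 3. The day 4 mice, infarcted and sham alike, were Cdh5-Cre; Sun1-sfGFP, in which an endothelial promoter drives Cre and Sun1-sfGFP is a tag of the nuclear envelope. Their protocol names both a GFP sort of nuclei and a pulldown of PCM1, a protein around cardiomyocyte nuclei. Reads were paired, of 76 bp. The mice of days 7 and 14 were labelled as Myh6-MerCreMer with the nTnG reporter, and their protocol also names a line with the CAG-Sun1/sfGFP allele at Gt(ROSA)26Sor. There the cardiomyocyte promoter of Myh6 drives a tamoxifen-dependent Cre. Infarcted and sham animals of both days had received tamoxifen at 20 mg/kg before surgery, and 50000 sorted GFP-positive nuclei were used per sample. The sources used here give neither age nor the number of animals behind a library. Tamoxifen is stated for days 7 and 14 only. Day 4 and the later days therefore differ also in mouse line, stated tamoxifen, isolation of nuclei and aligner. The kinds of nuclei sampled may differ too, and none of these can be told apart from time. No annotation of the mm9 genome, on which the lists are built, was used here, so positions below carry no gene names, no sequence is shown, and the cell type was not checked against marker genes.

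Of the 5 widest members, 2 on chromosome 16 had similar levels in all libraries. On chr16:18338751-18346250, a stretch of 7.5 kb, the border zone libraries held 1085, 796 and 2837 tags on days 4, 7 and 14, against 1225, 943 and 2905 tags in the sham libraries. As a level, tags per 1e+06 tags of all loci listed on every day, that was 283, 299 and 293 in border zone and 286, 305 and 284 in sham. The 6 levels lay close together. Of this, the closeness of border zone to sham on each day is what the rule asked for, and the evenness over days is not. The other, chr16:18405251-18414250, 9 kb wide, had levels of 325, 323 and 272 in border zone, against 290, 315 and 244 in sham. Here both libraries of day 14 were the lowest.

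The member with the most tags was far less even over time. On chr13:63340251-63364250, the widest member at 24 kb, levels were 544, 1390 and 1190 in border zone, against 579, 1260 and 929 in sham. Border zone was below sham on day 4 and above it on the later days, with centred ratios of 0.896, 1.02 and 1.19. The day 14 value, with a 95% interval of 1.16 to 1.23, is next to the upper bound. Intervals of a centred ratio are exact Clopper-Pearson intervals of the border zone share of tags and cover counting error only. Intervals of a share of loci are Clopper-Pearson intervals over loci, which take loci as independent although they share libraries.

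Among the other loci of the 10 with the most tags, day and condition also ranged differently. On chr19:12078751-12088250 day 14 had the lowest level in both conditions, with 688, 766 and 421 in border zone, against 726, 711 and 418 in sham. On chr7:80761251-80765750 both day 4 libraries were lowest, with 234, 515 and 396 in border zone, against 266, 456 and 340 in sham. On chr16:30184251-30190250 the 6 values stayed within 1.5-fold of each other, at 403, 456 and 384 in border zone and 388, 464 and 325 in sham. The rule holds the conditions of a day close to each other, and leaves the spread over days free.

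**Figure D1:**
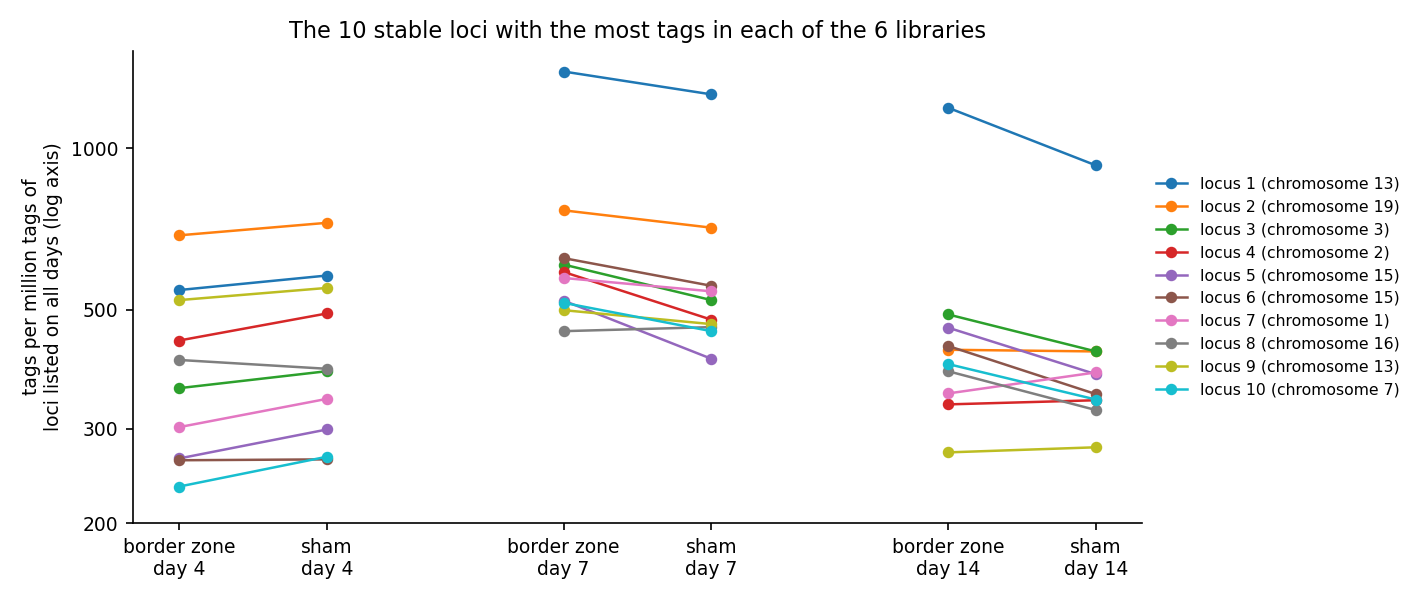
Level (tags per 1e+06 tags of loci listed on all 3 days, log axis) of the 10 stable loci with the most tags in each of the 6 libraries, with border zone left of sham on each day and a line joining the 2 libraries of a day. Locus 1 on chromosome 13 stood between 544 and 1390 in border zone and between 579 and 1260 in sham, and the other 9 loci lay between 234 and 766 in border zone and between 263 and 726 in sham.

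The members with centred ratios closest to 1 on every day were named among those with at least 500 tags in each library. On chr5:122849751-122853750 the tags were 717, 576 and 2570 in border zone, against 741, 618 and 2513 in sham. Its centred ratios were 1.03, 1.0045 and 1.01, with intervals of 0.929 to 1.14, 0.886 to 1.14 and 0.949 to 1.07. On chr9:44293251-44298250 the tags were 724, 531 and 1527 in border zone, against 752, 590 and 1539 in sham, for centred ratios of 1.03, 0.969 and 0.978. The other 3 loci of this kind were chr7:105962251-105965750, chr6:90684251-90688250 and chr1:82277751-82281250, and no centred ratio of theirs was further than 1.06-fold from 1.

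At the bounds, loci inside and outside had nearly equal ratios. Just inside the lower bound, chr9:114713751-114715250 had 123 border zone and 159 sham tags on day 7 and a centred ratio of 0.8301. Just outside it, chr4:150275251-150277250 had 160 border zone and 208 sham tags on day 7 and a centred ratio of 0.8298. Just inside the upper bound, chrX:91422751-91424250 had 361 border zone and 324 sham tags on day 7 and a centred ratio of 1.1997. Just outside it, chr3:28005751-28007750 had 235 border zone and 209 sham tags on day 4 and a centred ratio of 1.2002. Each of these pairs straddles a bound by less than its counting error.

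Fewest loci were inside the bounds on day 7, which also had the fewest listed tags per locus. Of the 19733 loci listed on every day, 59% met the bounds on day 4, 26.2% on day 7 and 42% on day 14. On day 7, 50.6% lay below the lower bound and 23.2% above the upper one, against 24.7% and 16.3% on day 4. The sides depend on the centre, since the median centred ratio of these loci was 0.941, 0.824 and 0.904 on days 4, 7 and 14. On day 7 that median is itself below the lower bound. With the median of these loci as the centre, 62.2%, 28.3% and 44.2% met the bounds. Over these loci 4252 were inside on no day, 8052 on 1 day and 5228 on 2 days. Of the members, 231 had a centred ratio above 1 on all days, 412 below 1 on all days, and 1558 fell on both sides of 1. Over all loci listed on every day, median tags were 145, 75.4 and 336 in border zone and 159, 97 and 369 in sham. Among those with at least 100 tags in each library, 72.5%, 37.8% and 54.9% met the bounds on days 4, 7 and 14. The part of tags in the day 7 share was not tested.

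**Figure D2:**
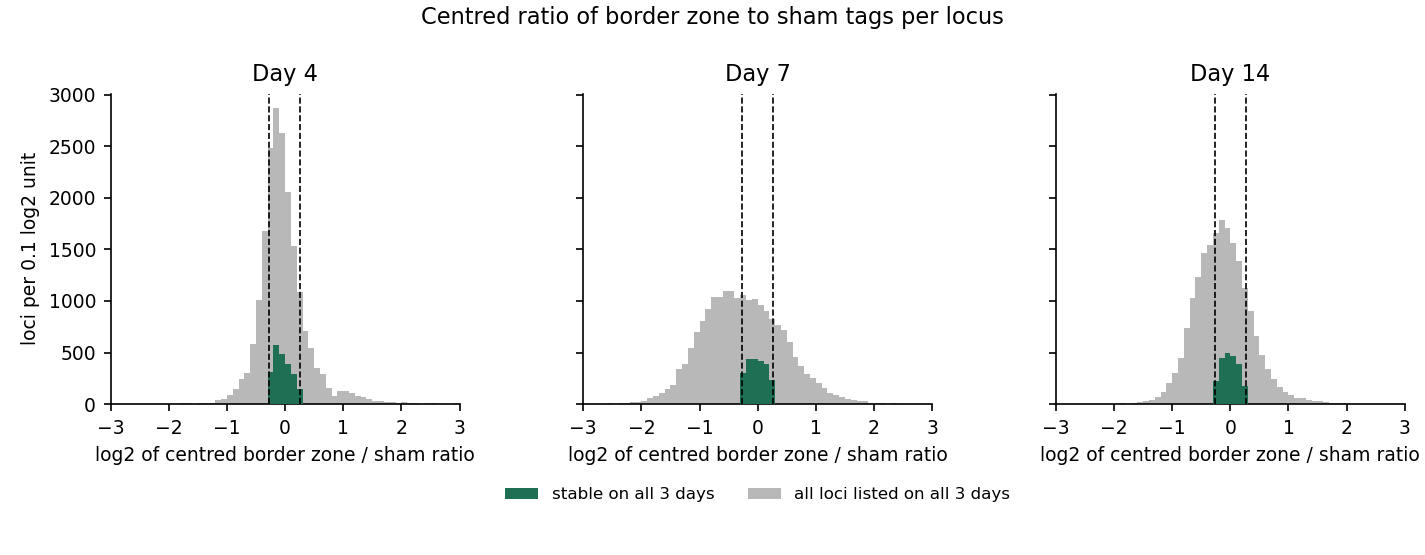
Number of loci per 0.1 log2 unit of the centred ratio of border zone to sham tags on days 4, 7 and 14, for the 2201 stable loci (green) drawn in front of all 19733 loci listed on all 3 days (grey), with dashed lines at the bounds of 0.83 and 1.2. The grey distribution is widest on day 7, where 26.2% of loci lie inside the bounds, against 59% on day 4 and 42% on day 14. Listed tags per locus were also fewest on day 7.

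Which loci are called stable also depends on the point taken as no change. The median ratio of a day's loci was 0.939, 0.929 and 1.01 on days 4, 7 and 14, and it includes loci listed on that day alone. Taking the median of the loci listed on every day in its place multiplies each centred ratio by 1.06, 1.21 and 1.11. The number of stable loci was then 2325, but 811 of them, 36.8% of the members, were the loci reported here. Day 7 made most of this difference, since 50.2% of the members stood above the upper bound on that day under the other centring, against 9.54% on day 4 and 22.3% on day 14. Without any centring 1347 members were kept, and 361 members, 16.4%, met the bounds under all 3 ways of centring. With the most tags among these 361 were chr13:21258751-21265750, chr17:46989251-46995750 and both chromosome 16 loci described first, followed by chr3:60302751-60307750. On chr13:21258751-21265750 the listed tags were 1995, 1328 and 2619 in border zone, against 2348, 1454 and 2837 in sham. Its levels were 521, 499 and 271 in border zone, against 549, 470 and 277 in sham. Listed tags were thus slightly fewer in border zone on every day, whereas the level was higher there on day 7.

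The ratio of 1 day can be left out of the choice, although every locus here had to be listed on that day too. When the bounds were applied to the ratios of days 7 and 14 alone, 3290 loci were chosen, and 66.9% of them (interval 65.3% to 68.5%) were inside on day 4, against 59% of all loci listed on every day. For day 14, 67.3% of 3270 loci chosen on days 4 and 7 were inside (65.7% to 68.9%), against 42%. For day 7, 41.8% of 5271 loci chosen on days 4 and 14 were inside (40.4% to 43.1%), against 26.2%. The loci chosen on the other days were inside more often on each day left out, with the smallest gap on day 4. Loci that were not chosen were inside in 57.4%, 20.5% and 37% on days 4, 7 and 14.

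Large ratios were less common among the chosen loci. The authors' differential regions all have a listed fold of at least 1.75, and a centred ratio past that fold in either direction on the day left out was found in 2.74% of chosen loci on day 4, 11% on day 7 and 1.22% on day 14. Over all loci listed on every day it was 6.07%, 28.6% and 9.22%. The chosen loci had more tags, with medians of 1418, 1443 and 1463 total tags over the 6 libraries when day 4, 7 or 14 was left out, against 1180, 1148 and 1174 in the loci not chosen. Within the loci of fewer than 1208 total tags, the shares inside were 58.2%, 37.5% and 60.6% of chosen loci on days 4, 7 and 14, against 51.1%, 24.6% and 39.8% of all. Within those of more tags they were 73.3%, 44.7% and 71.9%, against 67%, 27.8% and 44.3%.

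**Figure D3:**
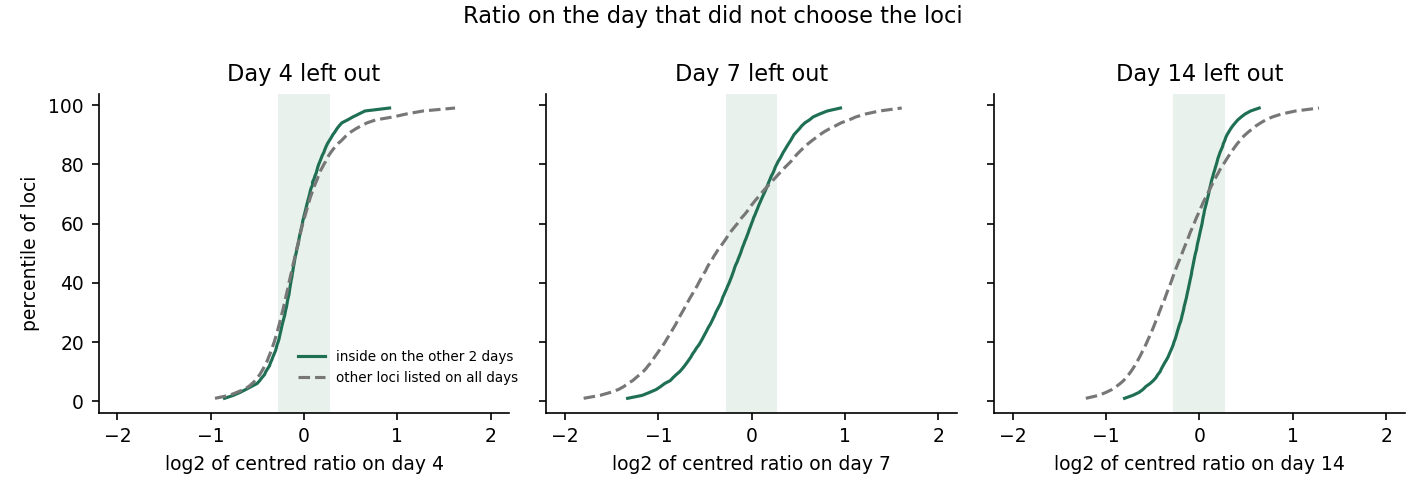
Percentile of loci (vertical axis) at or below a given log2 centred ratio on the day left out, for loci inside the bounds on the other 2 days (green) and for all other loci listed on every day (dashed grey), with the bounds shaded. The green curves are steeper on days 7 and 14, where 41.8% and 67.3% of chosen loci were inside, against 20.5% and 37% of the others.

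Counting error is wide beside the bounds. The interval of a member's centred ratio lay wholly inside the bounds in 215, 135 and 682 members on days 4, 7 and 14, and in 28 members (1.27%) on every day. All 28 were in the tenth of loci with the most tags. Conversely, of the 17532 loci listed on every day that are no members, 8199 (46.8%) had intervals that reached into the bounds on every day, so counting error does not set these apart from the members. The share of stable loci was 5.07% (4.14% to 6.13%) in the tenth of loci with the fewest tags, where the median was 551 total tags, and 23.2% (21.3% to 25.1%) in the tenth with the most, where it was 4409. The members held a median of 172, 131 and 490 border zone tags on days 4, 7 and 14, against 187, 142 and 484 in sham. Over all loci listed on every day the medians were 145, 75.4 and 336 in border zone and 159, 97 and 369 in sham.

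**Figure D4:**
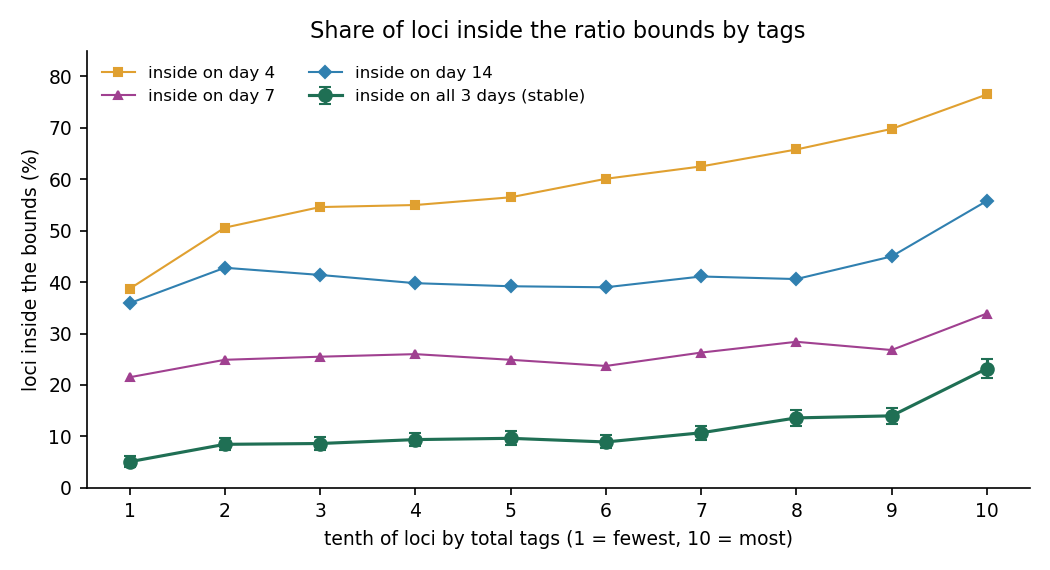
Share of loci inside the ratio bounds (%) in 10 groups of loci ordered by total tags over the 6 libraries, on all 3 days (green, with exact 95% intervals) and on each day alone. The share stable on all 3 days was 5.07% in the group with the fewest tags and 23.2% in the group with the most.

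Stable in the ratio does not mean the same level on every day. Relative to all loci listed on every day, members stood higher on day 7 than on day 4, with a median log2 change of level of 0.33 in border zone and 0.24 in sham. Over all these loci the median changes were -0.29 and -0.09. In border zone 372 members (16.9%) had a level at least 2-fold higher on day 7 than on day 4, against 18.3% of all, and 157 (7.13%) at least 2-fold lower, against 28.3%. In sham the shares were 12.6% higher, against 12.5% of all, and 6.13% lower, against 11.7%. Mouse line, stated tamoxifen, isolation and aligner change between these days, and their part in these changes was not tested.

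Between days 7 and 14, which share their protocol, the members' median levels were nearly equal. The median log2 change was 0.01 in border zone and 0.00 in sham, against 0.21 and 0.10 over all loci. At least 2-fold higher on day 14 were 2.5% of members in border zone, against 11.1% of all, and 2.82% in sham, against 4.76%. At least 2-fold lower were 4.54% in border zone, against 4.89%, and 3.91% in sham, against 3.53%. The border zone changes are tied to the sham changes in members by the rule. The sham levels are not free of it either, since sham tags enter the ratio on every day and loci with more tags met the bounds more often. The members' median sham tags were 187 on day 4 and 142 on day 7, against 159 and 97 over all loci, and the part of this selection in the changes of level was not tested.

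**Figure D5:**
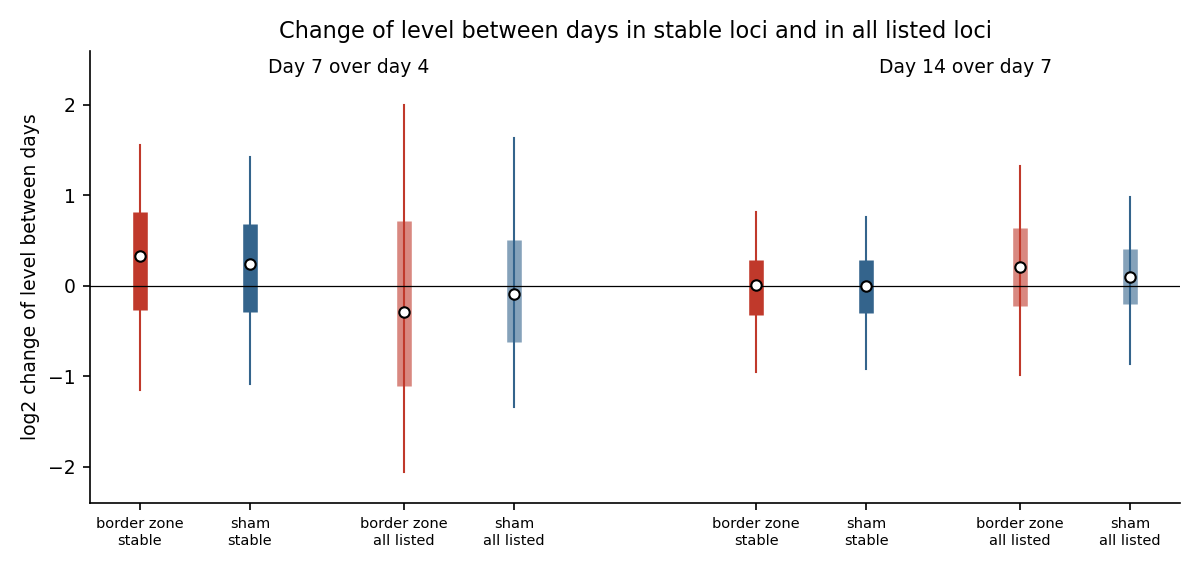
Log2 change of level (tags per 1e+06 tags of loci listed on all 3 days) from day 4 to day 7 and from day 7 to day 14, in border zone (red) and sham (blue), for the 2201 stable loci and for all 19733 loci listed on every day. Points are medians, thick bars run between the quartiles and thin lines between the 5th and 95th percentiles. The medians of stable loci were 0.33 and 0.24 for the first step and 0.01 and 0.00 for the second.

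In single members the level differed several fold between days, in the same order in both conditions. The rule keeps border zone near sham on each day, so with changes this large the shared order follows largely from the rule. On chr9:107513251-107516250 the level was 44.6, 269 and 201 in border zone, against 47.7, 208 and 163 in sham, the lowest being day 4 in each. On chr17:82067751-82071250 it was 32.9, 183 and 111 in border zone, against 30.6, 175 and 87 in sham. The opposite case, chr1:35989751-35992750, had 149, 49.6 and 93 in border zone, against 137, 42 and 88.6 in sham, with the lowest level on day 7 in each. Between the later days the smallest ratio of day 14 to day 7 in sham was on chr15:101006251-101008750, with 38.6, 67.8 and 16.6 in border zone, against 44.2, 75.3 and 13 in sham.

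At the even end, 660 members (30%) kept the highest and lowest of the 3 days within 1.5-fold in border zone and in sham alike, against 13.1% of all loci listed on every day. In sham alone it was 898 members (40.8%), against 36.1%, and in border zone alone 744 (33.8%), against 17.9%. The rule ties border zone to sham in members, so the wider gaps in border zone and in both come with the selection. Nothing is read from them. Among the loci with the most tags of those 660, beside chr16:30184251-30190250, chr2:32480251-32486250 had levels of 372, 409 and 374 in border zone, against 391, 322 and 322 in sham. These loci were picked after their values were seen.

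A minority of members still contained a region that the authors listed as differential. There were 259 of them (11.8%), against 10200 of all loci listed on every day (51.7%). On day 4 it was 50 members with a border zone-higher region and 26 with a sham-higher one, on day 7 63 and 84, and on day 14 85 and 7. As shares of the members these are 2.27%, 2.86% and 3.86% for border zone-higher regions, and 1.18%, 3.82% and 0.318% for sham-higher ones. Border zone-higher regions lay in 6.96%, 8.69% and 7.2% of all loci listed on every day, and sham-higher ones in 5.1%, 33% and 8.38%. In 11 members (0.5%) regions of both directions lay in 1 locus on 1 day, against 0.213% of all. All 259 held several regions on at least 1 day, which the rule fixes, since a single region with the authors' fold cannot meet the bounds. The lower shares in members, and the lower tag shares given next, come from the same selection, and nothing is read from them. The differential regions held a median of 12.2%, 19.9% and 13.1% of the tags of such members on days 4, 7 and 14, against 22.5%, 46% and 35.5% in non-stable loci of several regions.

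One member, chr6:124694251-124697750, held a border zone-higher region on every day, and it is singled out here after its values were seen. On day 14 its main region, chr6:124694751-124696250, had 1590 border zone and 1788 sham tags, and the adjoining region chr6:124696251-124697250 had 178 border zone and 85 sham tags. On day 7 the main region, chr6:124695251-124696750, had 678 border zone and 784 sham tags, and its flanks on both sides were border zone-higher, with 68.7 and 60.6 border zone tags against 32 and 28 in sham. On day 4 the flank chr6:124696751-124697750 had 48.6 border zone and 26 sham tags beside 607 and 650 in the main region. In listed tags, before centring, the flanks were about 2-fold higher in border zone. The main region, which holds most tags, had border zone to sham ratios of 0.934, 0.864 and 0.89 on days 4, 7 and 14. The median ratio of a day's loci was 0.939, 0.929 and 1.01, so on day 4 the main region stood near it. On day 4 the flank's border zone tags were scaled by the authors and those of the main region were not. The whole locus had centred ratios of 1.03, 1.03 and 0.931.

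The widest member, chr13:63340251-63364250, was a mosaic of this kind. It held 1 sham-higher region on day 4, 1 border zone-higher region on day 7 and 3 border zone-higher regions on day 14. The sham-higher region, chr13:63350251-63351250, had 30.8 border zone and 61 sham tags. The largest of the day 14 regions, chr13:63353751-63356250, had 997 border zone and 516 sham tags, beside non-differential regions with ratios between 1.06 and 1.34. The sum over this locus joins regions of unequal ratio.

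Stable loci also lay directly beside loci that the authors called changed on every day. There were 297 loci with a border zone-higher region and none of the other direction on all 3 days, and 115 with a sham-higher one. On chr16:4643251-4645250, a member, the centred ratios were 1.01, 0.947 and 0.853, while the abutting locus chr16:4641751-4643250 had 47.6, 191 and 474 tags in border zone, against 23, 94 and 275 in sham. On chr9:102681251-102682750 the member had 350, 356 and 1422 border zone tags, against 389, 448 and 1486 in sham. Its abutting neighbour chr9:102679251-102681250 had 43.4, 155 and 203 border zone tags, against 17, 79 and 98 in sham. The stable and the changed locus in these pairs touch end to end. Near sham-higher loci, chr9:119935751-119937750 lay 4.5 kb from chr9:119928251-119931250, with 313, 240 and 965 border zone tags, against 350, 292 and 1022 in sham. The changed locus there had 18.6, 275 and 720 tags in border zone, against 39, 393 and 1093 in sham. Within 50 kb of a border zone-higher locus were 89 members (4.05%), against 3.4% of all loci listed on every day, and of a sham-higher one 19 members (0.863%), against 1.33%. These pairs were selected after their values were seen.

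Members matched the other loci in median width, but the share of stable loci differed between width classes. Their median width was 1500 bp, as over all loci listed on every day, and they ranged between 1000 and 24000 bp. They formed 1 region on each day in 85.3% of cases, against 75.7% of all, and 46.8% had identical start and end on all 3 days, against 42.5%. Among all listed loci with no differential region, as 88.2% of members were, these shares were 98.3% and 55.8%. The rule leaves fewer loci with a differential region among members, and its part in these gaps was not tested. The share of stable loci was 9.07% (8.37% to 9.81%) among loci up to 1000 bp and 18.5% (16% to 21.2%) among those of 3000 to 5000 bp, and the median total tags of these classes were 742 and 3675. Above 5000 bp it was 13.8% (9.77% to 18.8%) of 246 loci, with a median of 6969 total tags. That interval overlaps the interval of the loci of 3000 to 5000 bp. Ordered by tags alone, the share was highest, at 23.2%, in the tenth with the most tags. The parts of width and tags in this were not tested.

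Members were spread over all autosomes and the X chromosome. The share of stable loci on single autosomes ran between 9.14% on chromosome 9 and 13.2% on chromosome 11. On the X chromosome it was 34 of 205 loci, 16.6% (11.8% to 22.4%), against 11.1% (10.7% to 11.5%) over the autosomes. With the median of loci listed on every day as the centre, it was 10.7% on X, where 2325 of all 19733 loci were stable. Without any centring it was 12.2% on X, where 1787 of all 19733 were stable. Among loci with at least 100 tags in each library it was 29.7% of 74 on X, against 21% of all. The X member with the most tags, chrX:162947251-162949250, had 498, 660 and 1241 border zone tags, against 625, 597 and 1447 in sham.

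The nearest listed locus was a member for 282 members (12.8%, lower limit 11.4%), against 11% of the other loci (10.6% to 11.5%) and an overall share of 11.2%. Among loci with at least 100 tags in each library it was 23.4% of members, where members made up 21% of loci. Of the members 1678 had no member next to them in order along the chromosome, and runs of 2, 3 and 4 consecutive members numbered 215, 23 and 6. No such counts were made for other loci, and nothing is read from these. In 1 of the 6 runs of 4, over 522 kb at chr10:127013251-127535250, summed tags were 1641, 2231 and 4942 in border zone, against 1859, 2374 and 4729 in sham. Another over 223.5 kb at chr11:116079251-116302750 had 714, 541 and 2024 tags in border zone, against 731, 589 and 2035 in sham.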

How the data were processed

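The members and lists were chosen with earlier results of these data known. The 9 deposited region lists give, per the file headers, sham tags and border zone tags. Sham tags are deposited counts. Border zone tags are a deposited signal in 8 lists, scaled by the authors, and counts in the non-differential list of day 4; of the 85106 scaled values, 97.5% were a whole number times a factor of the day, within a relative tolerance of 0.001%. A day has several such factors (1.03 and 1.10 on day 4, mainly 1.17 and 1.35 on day 7 and 1.18 and 1.37 on day 14), so regions of 1 locus and day can carry different scalings, whose origin is not stated. The submitters' processing notes name mm9, Bowtie2 for day 4, BWA for days 7 and 14, and bedtools for all. The sources used here give no versions and no region caller.

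Loci and centred ratios were computed in Python 3.11.15 with pandas 2.3.3 and SciPy 1.17.1 and checked on simulated lists. Levels are tags per 1e+06 tags of the loci listed on every day. Intervals used whole tags where the scaling could be undone. Regions under the authors' minimum of tags are in no list, listed tags are not library depth, which is unknown here, and PCR copies cannot be told from separate molecules, so intervals cover counting error only. With 1 library per condition and day, and members chosen on the contrast, no test was made. Nothing in the labels says that libraries came from separate animals.

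Loci were named by rule: the 10 members with the most tags, the 5 widest, the 5 closest to a ratio of 1, 3 on either side of each bound, the 3 with the largest and smallest change between days in sham, and 3 of the 6 runs of 4 members, which are tied in length. Part of them is described. Other named loci were chosen after their values were seen. Positions refer to mm9 and start at 1. The 30 RNA-seq samples were not analysed here, and 0 columns of unmapped samples were used.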

Additional observations from a re-analysis of the deposited data

How the results depend on the processing

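The number of stable loci, 2201, followed the width of the bounds and the number of days: it was 512 with bounds of 0.9 to 1.11, 5220 with 0.75 to 1.33, 1188 with at least 100 tags in each library, and 3837, 6160 and 3360 without day 4, 7 or 14. It was 2195 with whole tags and 1942 without loci holding a differential region. The share inside on the day left out was 40.4%, 26.4% and 43% on days 4, 7 and 14 with the narrower bounds (35.8%, 15.2% and 25.1% of all loci), 77.2%, 51% and 74.2% with at least 100 tags (72.5%, 37.8% and 54.9% of all), and 68.9%, 38.9% and 62% with the median of loci listed on every day (62.2%, 28.3% and 44.2% of all). That last setting, the one without differential regions, the X share under each setting and the nearest member with at least 100 tags were added after seeing the data. The median width was 2000 bp with at least 100 tags, where fewer loci remain. Counting error limits membership of single loci most on day 7, where the upper bound of a member's interval was a median of 1.71 times the lower one, against 1.53 on day 4 and 1.32 on day 14.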
